A study of Mus musculus with 6 samples.

Results

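The genes described here are 10 interferon-stimulated effectors, *Ifit1*, *Ifit2*, *Ifit3*, *Ifitm1*, *Ifitm2*, *Ifitm3*, *Ifi44*, *Rsad2*, *Mx1* and *Bst2*, taken by symbol from the 24346 genes of the deposited expression table. They were picked by name with their values in these libraries already known, so their difference between the genotypes is given as a description, with no test of their own. Their transcripts were measured by RNA-seq of epididymal white adipose tissue (WAT) in 3 AdArmc5 KO and 3 Armc5 flox libraries. Armc5 flox mice, bred from a C57BL/6N EUCOMM allele, carry LoxP sites in *Armc5*, and their lacZ and neomycin resistance cassettes had been removed with *CAG-FLPe*. AdArmc5 KO mice carry the same floxed allele together with *Adipoq-Cre*, a recombinase driven by the adiponectin promoter, so that *Armc5* is excised in adipocytes and not in the other cells of the fat pad. The study compared littermates. All mice were 24 weeks old, were fasted for 24 h and were refed for 6 h before the tissue was taken. Whole tissue was sequenced, so that a change in the number of cells of a type and a change in RNA per cell cannot be told apart.

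Type I and type III interferons are secreted when a cell detects foreign or misplaced nucleic acid. They bind receptors that act through JAK1 and TYK2 to assemble the transcription factor complex ISGF3, of which STAT2 and IRF9 are parts and which switches on interferon-stimulated genes through a promoter element of spaced GAAA repeats. The effectors described here are among those genes. IFIT proteins bind viral RNA and block its translation, IFITM proteins sit in membranes and hinder the fusion of viral particles, RSAD2 (viperin) turns CTP into a chain terminator of viral polymerases, MX1 is a dynamin-like GTPase, and BST2 (tetherin) ties budding particles to the cell surface. The role of IFI44 is less settled. Adipocytes, and the macrophages, vessels and mesothelium of the fat pad, can all respond to interferon.

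On mm10, the 3 Ifit members lie in a cluster on chromosome 19, with *Ifit2* at chr19:34550550-34576534, *Ifit3* at chr19:34583119-34588982 and *Ifit1* at chr19:34640889-34650009, all on the plus strand. *Ifit2* and *Ifit3* are neighbours, and the relatives *Ifit3b* and *Ifit1bl2* lie between *Ifit3* and *Ifit1*. The Ifitm genes form a cluster on chromosome 7, with *Ifitm2* at chr7:140954837-140959686 on the minus strand, *Ifitm1* at chr7:140967429-140969827 on the plus strand and *Ifitm3* at chr7:141009590-141010744 on the minus strand. *Armc5* lies on the same chromosome at chr7:128237357-128245100. The other members lie on separate chromosomes, *Ifi44* at chr3:151730922-151749910, *Rsad2* at chr12:26442743-26456452, *Mx1* at chr16:97447035-97462906 and *Bst2* at chr8:71534255-71537472, each on the minus strand. The relative *Ifi44l* is the neighbour of *Ifi44*, and *Fam3b* lies between *Mx1* and its relative *Mx2*. *Rsad2* has *Cmpk2* (chr12:26469117-26479837), which encodes a nucleotide kinase, as its neighbour on the opposite strand.

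The promoter windows of RefSeq (GRCm38.p6, 250 bases before to 50 bases after a start site) were searched on both strands for GAAANNGAAA, the core of the interferon-stimulated response element, and for GAAANNNGAAA, the same repeats with 1 base more between them. A window was found for 9 of the 10 members, and *Mx1* was not matched. The windows of *Ifit3* and *Ifitm2* belong to start sites inside the span of the gene given above. The stretches that hold the matches upstream of the start site are shown because the element is the binding site of ISGF3 and of the IRF family. Capitals mark the matches, which read TTTCNNTTTC or TTTCNNNTTTC where they lie on the opposite strand, and 20 bases are given on either side.

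Ifit1, chr19:34640765-34640833, plus strand: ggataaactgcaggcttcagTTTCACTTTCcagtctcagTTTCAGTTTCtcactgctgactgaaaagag
Ifit3, chr19:34583353-34583443, plus strand: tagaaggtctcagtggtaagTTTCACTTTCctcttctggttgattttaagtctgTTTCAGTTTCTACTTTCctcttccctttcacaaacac
Ifi44, chr3:151749935-151749985, minus strand: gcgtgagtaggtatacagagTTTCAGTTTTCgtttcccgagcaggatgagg
Bst2, chr8:71537567-71537622, minus strand: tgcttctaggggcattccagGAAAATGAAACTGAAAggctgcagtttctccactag
Rsad2, chr12:26456531-26456592, minus strand: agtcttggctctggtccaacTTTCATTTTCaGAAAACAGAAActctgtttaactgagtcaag
Ifitm2, chr7:140955978-140956027, minus strand: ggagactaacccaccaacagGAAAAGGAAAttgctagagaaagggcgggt

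*Ifit1* and *Bst2* held 2 matches each to GAAANNGAAA, those of *Bst2* overlapping, and *Ifit3* held 2 together with 1 match to GAAANNNGAAA that overlaps the nearer of them. *Ifi44* held 1 match to GAAANNNGAAA. *Rsad2* held 1 match to each form and *Ifitm2* held 1 match to GAAANNGAAA. In *Ifitm3*, 2 matches to GAAANNGAAA lay after the start site, at bases 3 to 12 and 20 to 29 of the transcript. No match lay in the 2 windows of *Ifit2* or in the window of *Ifitm1*. Of all 32851 windows, 3.44% held GAAANNGAAA, 2.75% held GAAANNNGAAA and 5.99% held either. A match says that the letters are present, not that a factor binds there.

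**Figure D1:**
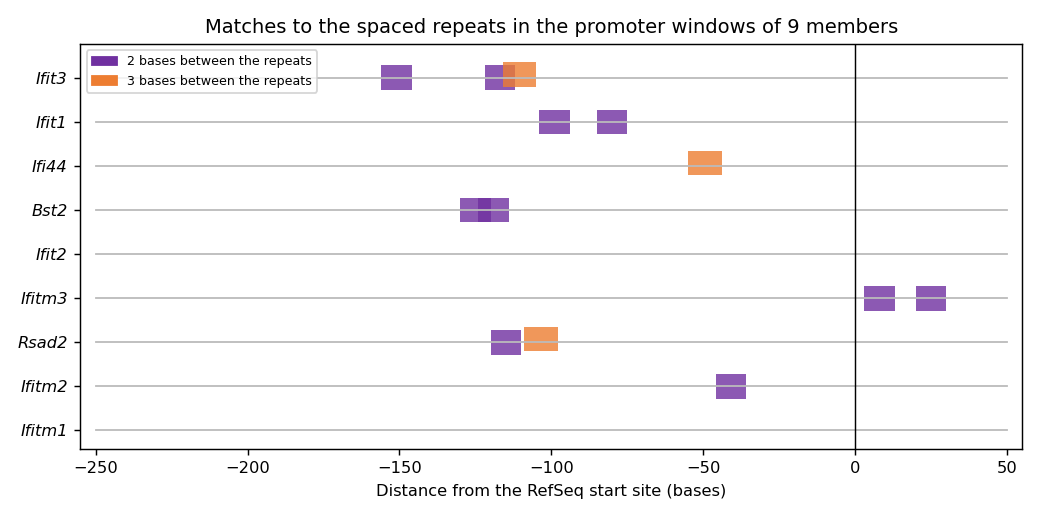
Position of each match, in bases from the RefSeq start site (x axis), for the 9 members with a promoter window. Bars mark the 2-base and 3-base forms of the spaced repeat. Upstream matches lie between bases −156 and −37 in *Ifit3*, *Ifit1*, *Ifi44*, *Bst2*, *Rsad2* and *Ifitm2*, those of *Ifitm3* lie after it, and the lines of *Ifit2* and *Ifitm1* are empty.

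The libraries held 25320773 to 38311557 fragments. Expression is given in FPKM, fragments scaled to the length of the transcript and to the mapped fragments of the library, with the mean and SD over 3 libraries. The targeted gene, *Armc5*, measured 3.66, 4.48 and 5.82 FPKM in AdArmc5 KO replicates 1, 2 and 3, against 5.12, 5.66 and 5.58 FPKM in Armc5 flox replicates 1, 2 and 3. *Armc5* thus exceeded all 3 Armc5 flox values in the library labelled AdArmc5 KO replicate 3, the opposite of the direction that the label gives. FPKM of the whole gene in whole tissue includes cells without excision, so it does not show by itself whether the label is right. *Scd1*, a fatty acid desaturase, ran with the labels, at 990, 535 and 249.6 FPKM in AdArmc5 KO replicates 1, 2 and 3, against 4339, 3402 and 3542 FPKM in Armc5 flox. The defining adipocyte gene *Adipoq* was at 1896 FPKM or more in every library. Some libraries stood apart by transcripts foreign to fat. *Foxj1*, of ciliated epithelium, was at 62.4 FPKM in AdArmc5 KO replicate 2 and 76.0 FPKM in Armc5 flox replicate 1 and at 0.708 FPKM or less in the other 4, and *Akr1b7*, of the vas deferens, was at 3122 FPKM in the library labelled AdArmc5 KO replicate 3, 17.4 FPKM in Armc5 flox replicate 3 and 1.33 FPKM or less in the other 4. The count of members whose groups are apart is therefore also given without these libraries, and the counts of the other lists are not.

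Of the 10 members, 7 were higher in each AdArmc5 KO library than in any Armc5 flox library, so that their groups were apart, and the groups of the other 3 overlapped. Over the 12670 genes with at least 1 FPKM in at least 3 libraries, 3.54% were higher in each AdArmc5 KO library and 5.26% were lower in each. The 7 members were *Ifit1*, *Ifit2*, *Ifit3*, *Ifitm3*, *Ifi44*, *Mx1* and *Bst2*. The count was 7 without AdArmc5 KO replicate 2 and Armc5 flox replicate 1, and 8 without the replicate 3 libraries of both genotypes, where *Rsad2* joined. It was 7 when only the library labelled AdArmc5 KO replicate 3 was left out. Groups of fewer libraries come apart more easily, and the share over all genes was not computed for these smaller sets. The median difference of the 10 members on log2(FPKM + 1), AdArmc5 KO minus Armc5 flox, was 1.02, beside a median of −0.03 over all genes tested. All 10 members passed the minimum. *Ifi44* and *Mx1* had 1 Armc5 flox library each under 1 FPKM.

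**Figure D2:**
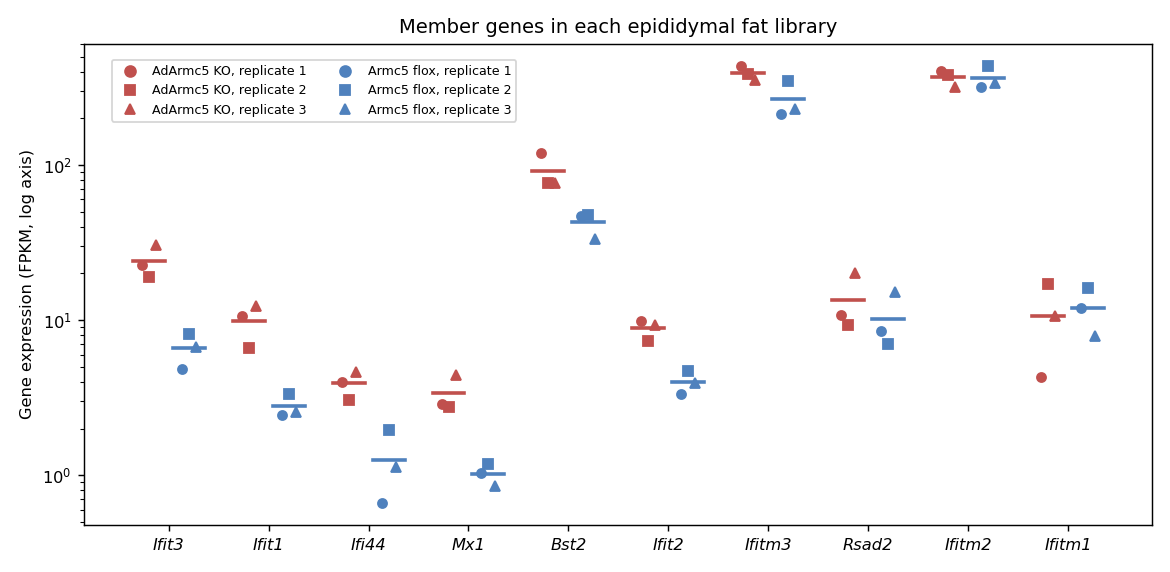
FPKM on a log axis (y axis) of the 10 members (x axis) in each library, with AdArmc5 KO to the left of Armc5 flox and a line at each mean. The points of *Ifit3*, *Ifit1*, *Ifi44*, *Mx1*, *Bst2*, *Ifit2* and *Ifitm3* are apart, those of *Ifitm3* by only 354 FPKM against 350 FPKM, and those of *Rsad2*, *Ifitm2* and *Ifitm1* overlap.

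Gene expression of all 3 Ifit members was higher in each AdArmc5 KO library than in any Armc5 flox library. *Ifit3*, whose protein forms complexes with other IFIT proteins in human cells, measured 22.7, 18.9 and 30.7 FPKM in AdArmc5 KO replicates 1, 2 and 3, against 4.81, 8.19 and 6.72 FPKM in Armc5 flox. Its mean was 24.1 ± 6.03 FPKM in AdArmc5 KO and 6.57 ± 1.70 FPKM in Armc5 flox, and its difference of 1.73 (standard error 0.24) on log2(FPKM + 1) was the largest of the members and ranked 18 of the 12670 genes tested. The lowest AdArmc5 KO value was 2.30 times the highest Armc5 flox value. *Ifit1*, which binds RNA whose cap lacks the methylation of host messages, measured 10.7, 6.61 and 12.4 FPKM in AdArmc5 KO, against 2.44, 3.33 and 2.55 FPKM in Armc5 flox. Its difference was 1.49 (standard error 0.24). AdArmc5 KO replicate 2 was its lowest AdArmc5 KO library and was still 1.98 times the highest Armc5 flox library. *Ifit2*, which binds AU-rich RNA, measured 9.93, 7.29 and 9.33 FPKM in AdArmc5 KO, against 3.35, 4.73 and 3.90 FPKM in Armc5 flox, with a difference of 0.98 (standard error 0.17), the smallest of the 3.

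The Ifit genes did not keep 1 ratio between the genotypes. *Ifit3* stood at 2.29 to 3.29 times *Ifit2* in AdArmc5 KO libraries and at 1.43 to 1.73 times *Ifit2* in Armc5 flox libraries, with no overlap. The ratio of *Ifit3* to *Ifit1* was 2.13 to 2.85 in AdArmc5 KO and 1.97 to 2.63 in Armc5 flox, so that it overlapped. *Ifit3* shares 31.7% of the 100-base windows of its transcript with its paralog *Ifit3b*, and reads from these parts could have been split between the pair. *Ifit3b* itself measured 6.56, 5.67 and 8.75 FPKM in AdArmc5 KO, against 1.52, 3.03 and 1.95 FPKM in Armc5 flox. *Ifit1* shares 3.29% of its windows, all with *Ifit1bl2*, and *Ifit2* shares none. The remaining genes of the cluster were at low levels, *Ifit1bl1* at 0.259 to 0.756 FPKM in AdArmc5 KO and 0.305 to 0.472 FPKM in Armc5 flox, and *Ifit1bl2* at 0.196 to 0.302 FPKM in AdArmc5 KO and 0.093 to 0.197 FPKM in Armc5 flox. *Ifit1bl1* overlaps *Ifit1* on the other strand, and the sources used here do not say whether the counting used strand.

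The 3 Ifitm members differed from each other although they are neighbours. *Ifitm3*, whose protein acts in late endosomes against incoming virus, measured 436, 389 and 354 FPKM in AdArmc5 KO, against 214, 350 and 231 FPKM in Armc5 flox. Its groups were apart by a ratio of only 1.01 between the lowest AdArmc5 KO and the highest Armc5 flox library, and its difference was 0.60 (standard error 0.23). *Ifitm2*, a close homolog, measured 403, 380 and 318 FPKM in AdArmc5 KO, against 320, 434 and 339 FPKM in Armc5 flox, and the groups overlapped with a difference of 0.02 (standard error 0.19). *Ifitm1*, which acts mainly at the cell surface, measured 4.32, 17.2 and 10.6 FPKM in AdArmc5 KO, against 11.9, 16.2 and 7.88 FPKM in Armc5 flox. AdArmc5 KO held both its lowest and its highest library, and the difference of −0.27 (standard error 0.48) became 0.21 without AdArmc5 KO replicate 1. *Ifitm1* rests on 52 to 282 fragments, against 4147 to 5887 for *Ifitm2*.

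Within a library, *Ifitm3* and *Ifitm2* gave a ratio that varied little inside each genotype. It was 1.08, 1.02 and 1.11 in AdArmc5 KO, against 0.670, 0.806 and 0.680 in Armc5 flox, so that *Ifitm3* was the more abundant gene per length in each AdArmc5 KO library and *Ifitm2* in each Armc5 flox library. *Ifitm2* shares 34.9% of its transcript windows with other genes, mostly *Gm45717* (30.4%), and its level is uncertain to that extent, whereas *Ifitm3* and *Ifitm1* share none. *Ifitm6*, the next gene of the cluster, measured 14.7, 7.80 and 7.46 FPKM in AdArmc5 KO, against 4.76, 10.7 and 5.15 FPKM in Armc5 flox, and overlapped. *Ifitm5*, *Ifitm7* and *Ifitm10* were under 1.11 FPKM in every library and were not tested.

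On log2(FPKM + 1), *Rsad2* and *Ifitm1* had the widest spread of the members inside each genotype. It measured 10.8, 9.29 and 20.3 FPKM in AdArmc5 KO, against 8.50, 6.98 and 15.1 FPKM in Armc5 flox, with a difference of 0.36 (standard error 0.37). Replicate 3 was the highest library of either genotype, and these are the 2 libraries that carry *Akr1b7*. Without them, both remaining AdArmc5 KO libraries were above both remaining Armc5 flox libraries and the difference was 0.34 (standard error 0.18). Without the library labelled AdArmc5 KO replicate 3 alone, the difference was 0.04. The part of the foreign transcripts in this pattern was not tested. *Cmpk2*, whose product supplies nucleotides next to viperin, did not share the high value in Armc5 flox replicate 3. It measured 7.48, 6.43 and 10.5 FPKM in AdArmc5 KO, against 5.43, 4.69 and 5.66 FPKM in Armc5 flox. *Rsad2* was 1.44, 1.44 and 1.93 times *Cmpk2* in AdArmc5 KO, against 1.57, 1.49 and 2.67 times in Armc5 flox.

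*Mx1*, of the lowest level among the members, measured 2.89, 2.75 and 4.45 FPKM in AdArmc5 KO, against 1.03, 1.18 and 0.855 FPKM in Armc5 flox. The lowest AdArmc5 KO library was 2.33 times the highest Armc5 flox library, the widest gap of all 10 members, and the difference was 1.09 (standard error 0.20). These values rest on 60 to 464 fragments. Most laboratory strains, C57BL/6 among them, carry a deletion in *Mx1* and make no working protein, and RefSeq lists the gene as a transcribed pseudogene, so that here it reports on transcription only. Its homolog *Mx2*, also a pseudogene in RefSeq, measured 1.88, 1.75 and 3.38 FPKM in AdArmc5 KO, against 0.712, 0.920 and 0.823 FPKM in Armc5 flox. Only 1.25% of the windows of *Mx1* are shared with *Mx2*.

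*Bst2* measured 120, 76.1 and 76.4 FPKM in AdArmc5 KO, against 46.6, 47.9 and 33.4 FPKM in Armc5 flox. Its lowest AdArmc5 KO library was 1.59 times the highest Armc5 flox library, and the difference was 1.06 (standard error 0.24). BST2 is also a surface antigen of mouse plasmacytoid dendritic cells. Of the 5 markers listed for these cells, 2 reached the minimum for testing, and none had groups apart. *Siglech* was at 0.868 to 1.51 FPKM in AdArmc5 KO and 1.09 to 2.17 FPKM in Armc5 flox. The summed level of the markers was 3.37 to 12.3 FPKM in AdArmc5 KO and 2.88 to 11.4 FPKM in Armc5 flox. Its highest values came from libraries with foreign transcripts. *Ly6d* gave 10.3 FPKM in AdArmc5 KO replicate 3, and *Klk1* and *Pacsin1* gave 4.85 and 2.38 FPKM in Armc5 flox replicate 1. The sum is thus a poor measure of these cells. *Ifi44* measured 4.002, 3.07 and 4.63 FPKM in AdArmc5 KO, against 0.661, 1.96 and 1.12 FPKM in Armc5 flox, with a difference of 1.15 (standard error 0.26). The Armc5 flox libraries had the widest relative range of any member, with replicate 1 the lowest and replicate 2 the highest. Its neighbour *Ifi44l* was listed at 0 in all 6 libraries.

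By level per length, the members fell into steps. In AdArmc5 KO the order of the means was *Ifitm3* (393 ± 41.2 FPKM), *Ifitm2* (367 ± 43.7 FPKM), *Bst2* (90.9 ± 25.4 FPKM), *Ifit3*, *Rsad2* (13.5 ± 5.95 FPKM), *Ifitm1* (10.7 ± 6.43 FPKM), *Ifit1* (9.88 ± 2.95 FPKM), *Ifit2* (8.85 ± 1.39 FPKM), *Ifi44* (3.90 ± 0.784 FPKM) and *Mx1* (3.36 ± 0.943 FPKM). Neighbours in this order overlapped in their libraries except across 3 steps, from *Ifitm2* to *Bst2*, from *Bst2* to *Ifit3* and from *Ifit2* to *Ifi44*. In Armc5 flox, *Ifitm2* came first (364 ± 61.2 FPKM), then *Ifitm3* (265 ± 74.0 FPKM) and *Bst2* (42.6 ± 8.05 FPKM), and *Ifitm1* (12.0 ± 4.14 FPKM) and *Rsad2* (10.2 ± 4.32 FPKM) stood above *Ifit3*. *Ifit2* (3.99 ± 0.692 FPKM), *Ifit1* (2.78 ± 0.484 FPKM), *Ifi44* (1.25 ± 0.657 FPKM) and *Mx1* (1.02 ± 0.164 FPKM) followed. The neighbours that overlapped in Armc5 flox were *Ifitm2* with *Ifitm3*, *Ifitm1* with *Rsad2*, *Rsad2* with *Ifit3* and *Ifi44* with *Mx1*. *Ifit3* held the 4th place in AdArmc5 KO and the 6th in Armc5 flox.

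Inside a genotype the members did not vary as 1 block. After the genotype mean was subtracted, *Ifit1*, *Ifit2*, *Ifit3*, *Ifi44*, *Mx1* and *Bst2* had AdArmc5 KO replicate 2 as the lowest AdArmc5 KO library and Armc5 flox replicate 2 as the highest Armc5 flox library. In *Ifit1*, *Ifit2*, *Ifit3* and *Ifi44* the lowest library of each genotype was the one with ciliated transcripts, AdArmc5 KO replicate 2 and Armc5 flox replicate 1. Over the 6 libraries, r of their deviations with those of the ciliated markers was −0.94 to −0.83. It was 0.57 to 0.91 with the adipocyte markers and 0.34 to 0.71 with the macrophage markers. The adipocyte markers were also lowest in AdArmc5 KO replicate 2 (−0.27) and Armc5 flox replicate 1 (−0.39). Without both of these libraries the differences were 1.67 for *Ifit1*, 1.004 for *Ifit2*, 1.70 for *Ifit3* and 1.08 for *Ifi44*. The part of the foreign transcripts, or of the share of adipocytes or macrophages, was not tested. *Rsad2* had its high value in replicate 3 of both genotypes. *Ifitm2* and *Ifitm3* moved together, with Pearson's r of 0.95 between their deviations over the 6 libraries, a description over few points that share 1 scaling per library. *Ifitm1* had its lowest deviation, −0.97, in AdArmc5 KO replicate 1, the library in which the mean of the 5 mesothelial markers deviated most, by −1.01. The part of mesothelial cells in *Ifitm1* was not tested. The mean of the mesothelial markers on log2(FPKM + 1) was 1.33 to 2.86 in AdArmc5 KO and 2.98 to 3.33 in Armc5 flox, with no overlap. All 5 had a difference below 0, beside 7161 of the 12670 genes tested, with a median of −0.84, and the groups of each single marker overlapped. Their summed FPKM overlapped, at 8.11 to 53.8 in AdArmc5 KO and 40.4 to 88.8 in Armc5 flox. *Krt19* gave 37.7 FPKM of it in AdArmc5 KO replicate 2 and 72.4 FPKM in Armc5 flox replicate 1, the libraries with ciliated transcripts.

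**Figure D3:**
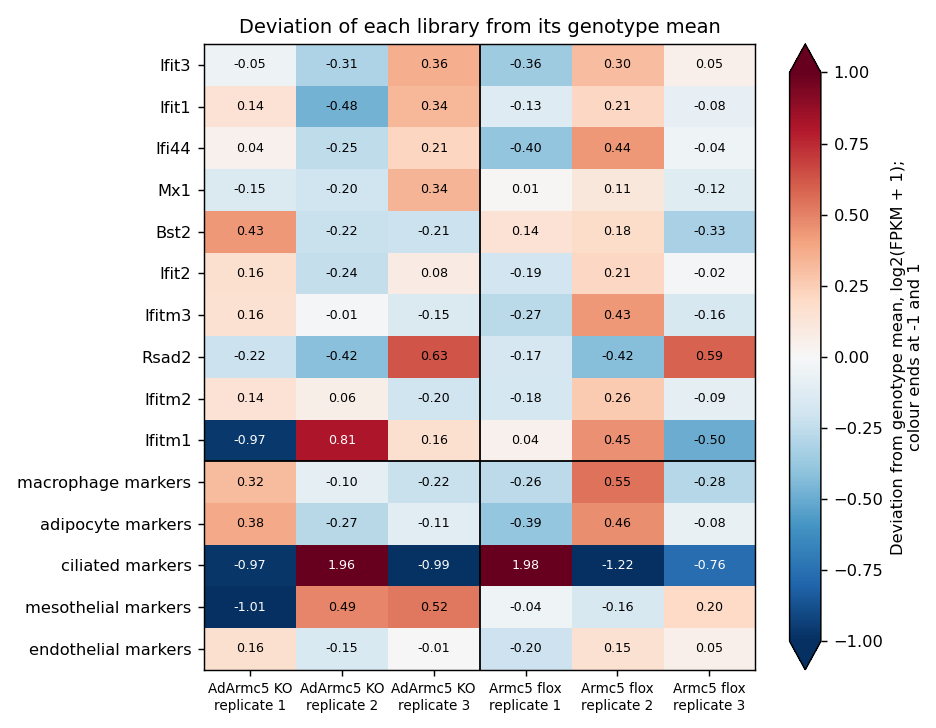
Deviation of each library (columns) from the mean of its genotype on log2(FPKM + 1), for the 10 members and for the mean of the tested markers of 5 cell types (rows), with colours that end at −1 and 1. *Rsad2* is high in replicate 3 of both genotypes (0.63 and 0.59), *Ifitm1* and the mesothelial markers are both low in AdArmc5 KO replicate 1, and *Ifitm3* is highest in Armc5 flox replicate 2 (0.43), where the macrophage markers (0.55) and the adipocyte markers (0.46) are too.

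The values of macrophage markers lay in part in the same direction as those of the members. Of 16 markers, 15 had a difference above 0, beside 5509 of the 12670 genes tested, and their median was 0.46. Beside 3.54% of all genes tested, 3 markers were higher in each AdArmc5 KO library than in any Armc5 flox library, namely *Fcgr1*, *Cd68* and *Aif1*. The groups of *Adgre1*, *Csf1r*, *Mrc1* and the 3 C1q genes overlapped. The summed level of the 16 markers was 1444 to 2598 FPKM in AdArmc5 KO and 1109 to 2213 FPKM in Armc5 flox. With the mean of these markers as a covariate, a fit added after the data had been seen, the difference of *Ifitm3* was 0.30 in place of 0.60, *Bst2* was 0.81 in place of 1.06, *Ifi44* was 0.92 in place of 1.15, *Ifit2* was 0.82 in place of 0.98, *Ifitm2* was −0.19 in place of 0.02 and *Rsad2* was 0.72 in place of 0.36. *Ifit3* was 1.60 in place of 1.73, *Ifit1* was 1.37 in place of 1.49, *Mx1* was 1.10 in place of 1.09 and *Ifitm1* was −0.24 in place of −0.27. The median over the members was 0.82 in this fit. Adipocyte markers did not part the genotypes, with 0 of 7 apart in either direction and a median of 0.02.

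None of the 10 interferon ligand genes that were looked up reached the minimum for testing. Of these, *Ifnb1*, *Ifna1*, *Ifna2*, *Ifna4*, *Ifna5*, *Ifnk*, *Ifne*, *Ifnl2* and *Ifnl3* were listed at 0 in all 6 libraries. *Ifng*, made by T cells and natural killer cells, was at 0.040, 0 and 0.215 FPKM in AdArmc5 KO and at 0.029, 0.035 and 0.108 FPKM in Armc5 flox.

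Of the 21 receptor and signalling genes, 20 could be tested. Of these, 3 were higher and 1 was lower in each AdArmc5 KO library than in any Armc5 flox library, beside 3.54% and 5.26% of all genes tested. The median difference was 0.10. Limma with Benjamini-Hochberg adjustment called none of them, as it called 0 of the 12670 genes in either direction at an adjusted p of 0.05 (0% higher and 0% lower). At an unadjusted p under 0.05 it gave 276 genes higher (2.18%) and 149 genes lower (1.18%) in AdArmc5 KO. The gene with the largest difference of this list was *Irf7*, the transcription factor that amplifies interferon production. It measured 40.2, 33.2 and 49.0 FPKM in AdArmc5 KO, against 13.05, 10.5 and 10.7 FPKM in Armc5 flox, with a difference of 1.74 (standard error 0.18, adjusted p = 0.58 from limma). *Usp18*, which removes ISG15 from proteins and restrains the receptor, measured 10.3, 7.14 and 11.8 FPKM in AdArmc5 KO, against 3.90, 3.10 and 2.74 FPKM in Armc5 flox (difference 1.32, standard error 0.21, adjusted p = 0.65 from limma). *Irf9*, of ISGF3, measured 21.2, 18.8 and 25.5 FPKM in AdArmc5 KO, against 17.5, 11.7 and 12.4 FPKM in Armc5 flox (difference 0.63, standard error 0.19, adjusted p = 0.98 from limma).

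*Stat2*, also of ISGF3, overlapped between the genotypes with a difference of 0.53 (standard error 0.21). The receptor chains *Ifnar1* and *Ifnar2* had differences of 0.02 and 0.12, *Ifngr1* and *Ifngr2* of 0.18 and −0.02, and *Il10rb* of 0.18. *Ifnlr1* was not tested. The kinases *Jak1*, *Tyk2* and *Jak2* had differences of 0.17, 0.05 and −0.02. *Irf3*, the factor that acts before interferon is made, was the gene of the list that was lower in each AdArmc5 KO library, as were 5.26% of all genes tested. It measured 28.3, 26.7 and 32.3 FPKM in AdArmc5 KO against 32.6, 34.1 and 41.9 FPKM in Armc5 flox (difference −0.30, standard error 0.15). *Socs1*, an inhibitor of JAK kinases, had a difference of −0.72 (standard error 0.39) and overlapped. The values of *Irf1*, *Stat3*, *Socs3*, *Ptpn6* and *Pias1* lay between −0.12 and 0.24.

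**Figure D4:**
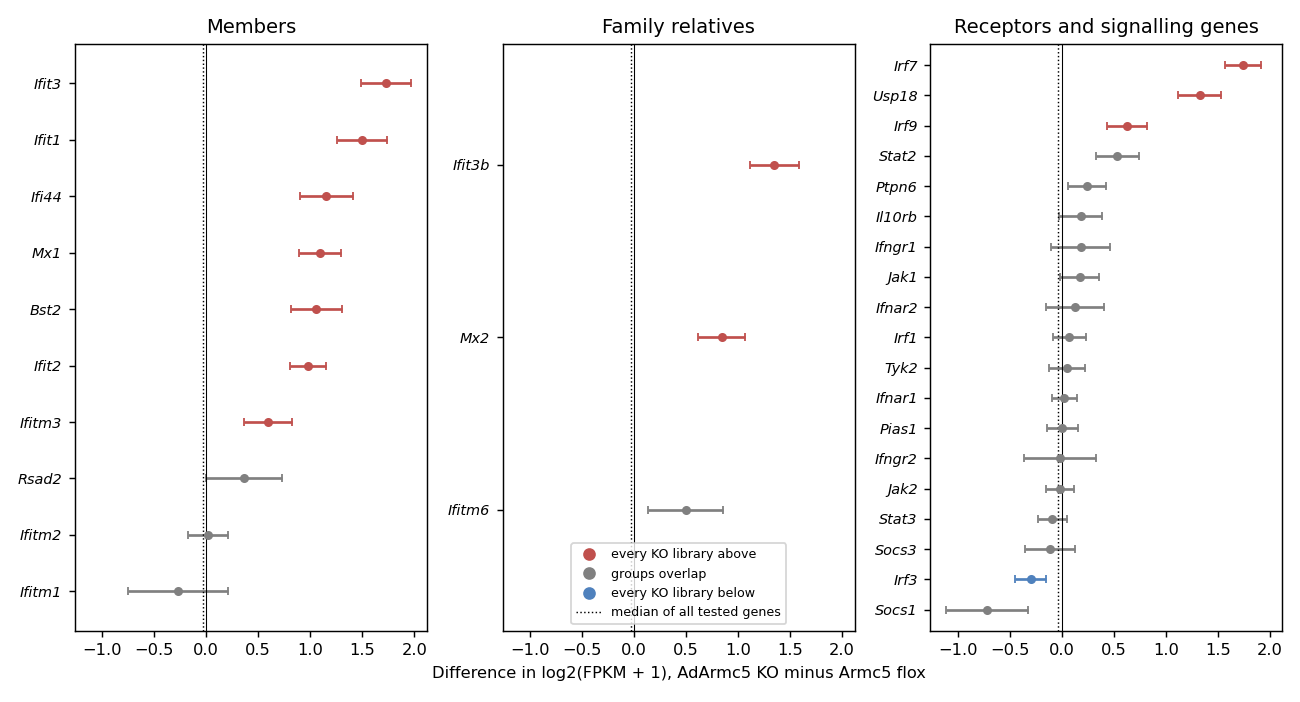
Difference on log2(FPKM + 1), AdArmc5 KO minus Armc5 flox, with its standard error from limma (x axis) for the members, their tested family relatives and the receptor and signalling genes reported here (rows in 3 panels). Red points were higher and the blue point (*Irf3*) was lower in each AdArmc5 KO library, grey points overlap, and the dotted line marks the median of all genes tested, −0.03.

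Among 55 other antiviral and interferon-stimulated genes, a list written with results of these libraries known, 54 could be tested. All 54 had a difference above 0, beside 5509 of the 12670 genes tested. Of the 54, 35 were higher in each AdArmc5 KO library than in any Armc5 flox library, beside the 3.54% of all genes. Limma called 0 at an adjusted p of 0.05. At an unadjusted p under 0.05 it gave 33, all higher, beside 2.18% higher and 1.18% lower of all genes tested. The median was 0.52, about the level of *Ifitm3* and below that of the other 6 members whose groups were apart. The 5 with the largest differences were *Oas1a* (1.82), which makes 2-5A upon binding double-stranded RNA, *Lgals3bp* (1.69), a secreted glycoprotein, *Rtp4* (1.60), a receptor transporter protein, *Zbp1* (1.50), a sensor of Z-form nucleic acid, and *Oas2* (1.47). *Oas1a* measured 13.03, 8.42 and 11.9 FPKM in AdArmc5 KO, against 1.71, 3.12 and 2.44 FPKM in Armc5 flox (standard error 0.22, adjusted p = 0.65 from limma). Among those with the smallest were *Isg20* (0.14), an exonuclease, and *Trim21* (0.10), a cytosolic antibody receptor. *Ifi27l2a* resembled *Rsad2* in that the highest library of each genotype was replicate 3, at 3668 FPKM in AdArmc5 KO and 3848 FPKM in Armc5 flox. It was named after its values had been seen.

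The genes most like the members over the 6 libraries were ranked by Pearson's r with the mean of the members' standardized values, a measure that the genotype difference dominates. The first 8 of the genes tested that are not members were *Ifit3b*, *H2-D1*, *Herc6*, *Carns1*, *Siglec1*, *Oas1a*, *Tgtp2* and *Oasl1*, with r of 0.98 to 0.99. *H2-D1*, a class I antigen-presenting molecule, averaged 1153 ± 45.3 FPKM in AdArmc5 KO and 793 ± 130 FPKM in Armc5 flox, and *Siglec1*, a macrophage lectin induced by interferon, averaged 18.2 ± 1.61 FPKM in AdArmc5 KO and 7.46 ± 2.55 FPKM in Armc5 flox. *Carns1*, which makes carnosine, averaged 3.33 ± 0.226 FPKM in AdArmc5 KO and 1.81 ± 0.310 FPKM in Armc5 flox. Of the 100 genes most like the members, 29 were in the lists of relatives, signalling genes and other antiviral genes. These lists hold 3, 20 and 54 of the 12670 genes tested. They were written with results of these libraries known, so the count is a description only. The members are part of the mean of their standardized values, which raises their own r with it. This r was 0.86 or more for the 7 members whose groups were apart, 0.32 for *Rsad2*, 0.27 for *Ifitm2* and −0.15 for *Ifitm1*. After the genotype means were subtracted, the 5 most alike were *Vps8*, *2810006K23Rik*, *4930515G01Rik*, *Golga7* and *Tmem38b*, with r of 0.989 to 0.998 and differences between genotypes from −0.12 to 0.37, and none of them is in the lists.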

How the data were processed

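Labels gave genotype and replicate number. Per the labels and the study's methods, TruSeq stranded mRNA libraries were read as 100-base pairs. For the mapping to mm10 the authors used TopHat 2.0.13 with Bowtie2 2.2.3 and SAMtools 0.1.19, and the FPKM that the authors deposited came from Cuffnorm 2.2.1. Normalized counts were deposited too, which are a signal scaled by 1 factor per library, and 98.7% to 99.0% of them were whole multiples of 1 fragment within 0.1. The 6 processed log2 columns, the group means, and the authors' own fold changes and p-values were not used.

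Genes with at least 1 FPKM in at least 3 libraries (12670 of 24346) entered the comparison on log2(FPKM + 1). Genotype was the sole term of a limma fit (limma 3.58.1, R 4.3.3) with a mean-variance trend and Benjamini-Hochberg adjustment, which was also tested on simulated data. Between 3 and 3 libraries an exact permutation test cannot go below p = 0.1. P-values set the genotype difference against the spread between these libraries within a genotype. The members and lists were chosen with earlier results of these data known. All members, relatives, ligands and signalling genes are named, of the other antiviral genes the 5 with the largest and 3 with the smallest difference, and the 8 and 5 genes most like the members. Some genes under this rule are counted but are not reported here by name. Coordinates and promoters are RefSeq's for GRCm38.p6, and shared windows were counted in GENCODE transcripts. Alternatives were pseudocounts of 0.1 and 0.5, no minimum, a minimum in 1 library, a trimmed mean of M values, quantile normalization, no trend, a replicate block, the normalized counts (at least 10 in 3 libraries) and each library left out. Those chosen after seeing the data left out both libraries with ciliated transcripts, left out both replicate 3 libraries, or used macrophage markers as a covariate.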

Additional observations from a re-analysis of the deposited data

How the results depend on the processing

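Over the 18 alternatives the members past an adjusted p of 0.05 in limma, and the genes past it in either direction, stayed at 0. The number of members with every AdArmc5 KO library above was 7 or 8. Where libraries were left out, groups come apart more easily, and no share over all genes was computed there. The median difference of the members was 0.87 to 1.13 with libraries left out and 0.82 with macrophage markers as a covariate. Genes at an unadjusted p under 0.05 numbered 425, against 669 with no minimum, 575 with the replicate block and 274 to 637 with libraries left out, lowest without AdArmc5 KO replicate 1 and highest without Armc5 flox replicate 2. Between same-numbered libraries, deviations from the genotype means correlated by −0.53, −0.41 and 0.58 for replicates 1, 2 and 3, and only replicate 3 correlated best with its own number. The highest value, 0.75, joined AdArmc5 KO replicate 2 and Armc5 flox replicate 1, which both hold ciliated transcripts, and both replicate 3 libraries hold *Akr1b7*. Shared foreign transcripts and a shared litter cannot be told apart in these values, so whether replicate numbers mark littermates is not known. Each member kept the sign of its difference in all 18 alternatives except *Ifitm1* (0.21 without AdArmc5 KO replicate 1) and *Ifitm2*, whose sign turned in 6. The range was 1.54 to 1.88 for *Ifit3*, 1.29 to 1.79 for *Ifit1*, 0.92 to 1.75 for *Ifi44*, 0.86 to 1.69 for *Mx1*, 0.81 to 1.24 for *Bst2*, 0.82 to 1.15 for *Ifit2*, 0.30 to 0.81 for *Ifitm3* and 0.04 to 0.72 for *Rsad2*. The low-level *Mx1* and *Ifi44* were at the top of their ranges with the normalized counts, where a pseudocount of 1 weighs less. The median of the signalling list was −0.08 with the macrophage covariate, against 0.10. The planned count models, edgeR and DESeq2, were not run because whole fragments were not recovered for all low values.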
